A study of Mus musculus with 12 samples.

Results

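Histone H3 monomethylated at lysine 4 (H3K4me1) was compared between C2C12 myotubes and C2C12 myoblasts. The members are the samples whose label gives H3K4me1 as the ChIP antibody, which are 2 of the 12 ChIP-seq samples of the series, 1 library per cell type. The other 10 libraries hold H3K4me2, H3K4me3, H3K27ac, H3K27me3 and H3K36me3 from the same 2 cell types. C2C12 is an established mouse line of muscle precursor cells (strain C3H in the labels) that fuses into multinucleated myotubes once serum is withdrawn. The myoblasts were nearly confluent in 10% serum. The myotubes were taken about 5 days after the start of differentiation by serum withdrawal, and mild trypsin treatment removed the cells that had not fused. Passage numbers were 15 to 18 for both. The cells are 1 cell line in culture, the myotubes differ from the myoblasts in serum as well as in fusion, and with 1 library per condition a difference between the cell types cannot be told apart from a difference between the libraries. No p-value was computed, and all intervals below are at 95%. Those of single ratios cover counting error only. Those of medians and shares treat windows or genes as independent draws. None of them covers variation between replicate libraries.

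H3K4me1 is laid down by the methyltransferases KMT2C and KMT2D and marks enhancers, both those in use and those held ready. At active promoters it sits on the flanks, while H3K4me3 covers the start site itself, and enhancers in use carry H3K27ac in addition. In muscle, the myogenic factors MyoD and myogenin bind E-boxes in enhancers, often near sites for MEF2 proteins, and switch on the genes of contraction.

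Reads were counted in fixed 1 kb windows, because the peaks of the 2 deposited lists differ in width. A window was tested if the reads of the 2 libraries summed to 20 or more. It is called gained if its read count was at least 4-fold higher in myotubes, and lost if at least 4-fold lower, after scaling by total reads and with 1 read added to each count. By this rule 8428 of 149049 tested windows were gained (5.65%) and 8789 were lost (5.9%).

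As examples, 6 stretches of 200 bases from called windows show what such sites look like. All are on the plus strand of mm9 and outside exons. The first 4 were gained beside muscle genes and were picked for the E-box CAGCTG, the motif MyoD and myogenin prefer, which is in capitals. The last 2 were lost and were picked for TGANTCA, the motif of AP-1 factors, also in capitals. Each stretch holds 1 match to the motif it was picked for, so that the matches follow from the choice and say nothing of how common the motif is. Only that motif is in capitals, and the lost Adamts12 stretch also holds CAGCTG, in lower case. The Neb stretch lies at chr2:52187001-52187200 in an intron of Neb (nebulin, a giant thin filament protein), in a window whose centre is 3153 bp from the start site. The Actn2 stretch lies at chr13:12411801-12412000 in an intron of Actn2 (α-actinin of the Z-disc). The Jph1 stretch is intergenic at chr1:16952378-16952577, in a window centred 135378 bp downstream of the start of Jph1, which codes for a junctophilin that ties the sarcoplasmic reticulum to the T-tubule. The Dysf stretch is intergenic at chr6:83950428-83950627, in a window centred 8083 bp upstream of the start of Dysf (dysferlin, needed for membrane repair). The Adamts12 stretch at chr15:11103779-11103978 lies in an intron of that gene, which codes for a secreted metalloprotease. The Actl6a stretch at chr3:32575458-32575657 is intergenic, beside a gene for a subunit of chromatin remodelling complexes.
Neb: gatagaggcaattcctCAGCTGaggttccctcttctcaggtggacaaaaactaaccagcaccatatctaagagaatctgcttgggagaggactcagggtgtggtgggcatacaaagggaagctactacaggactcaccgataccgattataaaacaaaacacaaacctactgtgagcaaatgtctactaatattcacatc
Actn2: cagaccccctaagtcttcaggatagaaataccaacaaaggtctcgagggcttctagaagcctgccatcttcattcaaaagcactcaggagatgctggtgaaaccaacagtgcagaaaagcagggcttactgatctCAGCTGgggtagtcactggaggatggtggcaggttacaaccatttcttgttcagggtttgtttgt
Jph1: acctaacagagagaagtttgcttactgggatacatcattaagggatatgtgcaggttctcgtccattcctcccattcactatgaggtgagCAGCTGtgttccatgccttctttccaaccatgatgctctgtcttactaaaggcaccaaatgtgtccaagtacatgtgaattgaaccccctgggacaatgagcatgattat
Dysf: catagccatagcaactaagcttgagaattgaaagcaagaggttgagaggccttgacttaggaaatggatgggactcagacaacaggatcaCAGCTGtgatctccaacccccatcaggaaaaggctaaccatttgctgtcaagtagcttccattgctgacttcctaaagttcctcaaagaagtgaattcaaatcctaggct
Adamts12: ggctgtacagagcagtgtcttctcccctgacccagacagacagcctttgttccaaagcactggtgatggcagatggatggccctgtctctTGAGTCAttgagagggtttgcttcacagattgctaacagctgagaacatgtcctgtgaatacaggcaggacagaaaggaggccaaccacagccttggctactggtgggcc
Actl6a: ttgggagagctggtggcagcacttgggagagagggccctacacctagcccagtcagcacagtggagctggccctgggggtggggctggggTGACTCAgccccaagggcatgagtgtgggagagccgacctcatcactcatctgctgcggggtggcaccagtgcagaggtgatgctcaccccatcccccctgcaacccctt

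The 1 kb window around the Neb stretch held 2 reads in myoblasts and 39 in myotubes, a ratio of 13.8 (5.21 to 172). That of Actn2 held 1 and 20 reads, and that of Jph1 held 1 and 22 reads, with ratios of 10.8 (3.3 to 856) and 11.9 (3.67 to 938). The Dysf window held 0 and 28 reads, which is at least 9.64-fold higher in myotubes when the count of 0 is set to a limit of 3 reads. H3K27ac reads in these 4 windows numbered 0 to 2 in myoblasts and 20 to 68 in myotubes. In the other direction, the Adamts12 window held 20 reads in myoblasts and 2 in myotubes, a ratio of 0.148 (0.0117 to 0.425), and the Actl6a window held 68 and 3, a ratio of 0.0599 (0.00917 to 0.139). H3K27ac in the Actl6a window went with H3K4me1, with 8 and 1 reads, while the Adamts12 window had 0 and 3. These H3K27ac counts are not scaled, and the H3K27ac libraries held 1857191 reads in myoblasts and 4721345 in myotubes.

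The libraries were of like depth but of unlike contrast. The myoblast library held 6471484 reads on the chromosomes used and the myotube library 6266847, or 2.53 and 2.45 reads per window. The myoblast reads were gathered in fewer windows. There were 12502 windows of at least 50 reads in myoblasts and 1902 in myotubes, and 50.2% of windows held no read in myoblasts against 43% in myotubes. Outside the deposited peaks the myotube library had 1.24 times the reads of the myoblast library after scaling by totals, from 1.15 to 1.35 on the autosomes and 1.42 on the X chromosome. The median ratio of tested windows, myotubes over myoblasts, was 0.845 (0.839 to 0.85). It depended on the level, being 1.03 in windows of 20 to 29 combined reads and 0.504 in windows of at least 100, of which 0 were gained and 392 were lost. The part of this contrast in the results below was not tested, and values under another scaling are given for the main counts. The plot of reads per window shows the pattern.

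**Figure D1:**
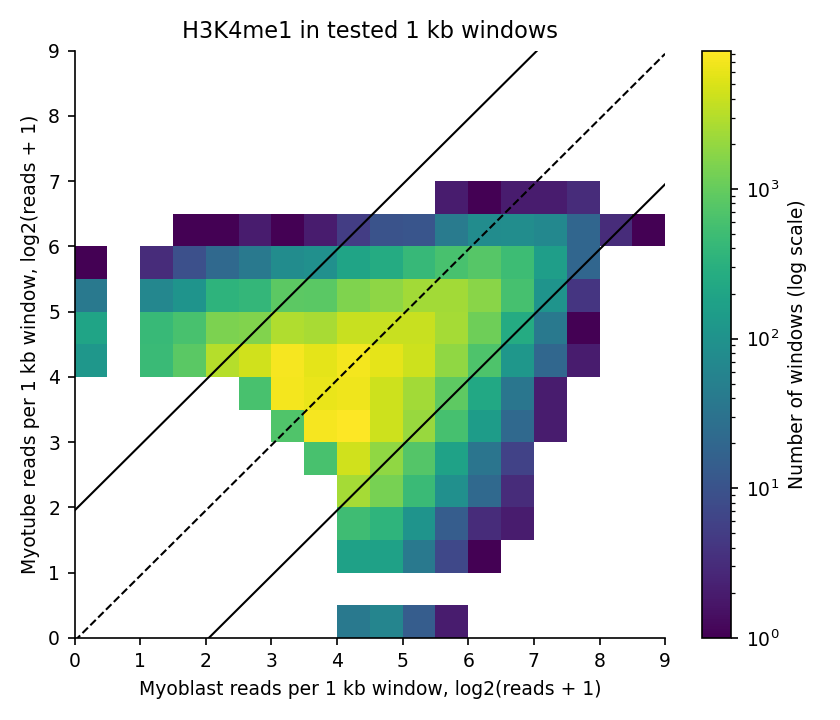
H3K4me1 reads of the 149049 tested windows in myoblasts (horizontal axis) and myotubes (vertical axis), both as log2(reads + 1), with colour giving the number of windows per cell of the grid on a log scale. The dashed line marks equal levels after scaling by total reads and the solid lines a 4-fold difference. The cloud reaches further to the right than upward, in that no myotube window exceeds 124 reads and the myoblast windows reach 382.

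The labels were checked against markers fixed for each cell type. Promoter H3K4me3 (reads within 1 kb of the start site) was 13 in myoblasts and 89 in myotubes at Myog, which codes for myogenin, the factor of terminal differentiation. It was 2 and 44 at Ckm (muscle creatine kinase), 4 and 215 at Acta1 (skeletal α-actin), 0 and 81 at Tnni2 (fast troponin I), 4 and 135 at Tnnt3 (fast troponin T), 7 and 222 at Mylpf (fast myosin light chain), 11 and 63 at Atp2a1 (the calcium pump) and 83 and 171 at Chrna1 (acetylcholine receptor). All 8 myotube markers were thus higher in the H3K4me3 library labelled myotube. Of the myoblast markers, Id3 (an inhibitor of E-protein factors) went from 185 to 33 reads, Ccnd1 (cyclin D1) from 89 to 19, Pax7 (the satellite cell factor) from 15 to 7 and Myf5 (a myogenic factor of precursors) from 49 to 30. Myod1, the factor that commits cells to muscle, had 34 and 54. These counts are of the H3K4me3 libraries, so they do not check the labels of the H3K4me1 libraries. Flank H3K4me1 of the myotube markers did not all go the same way, as given below for Myog, Acta1, Atp2a1 and Chrna1. Among markers of other cell types, summed flank H3K4me1 (1 to 5 kb on both sides of the start site) of the neuron list was 362 and 229 reads over its 10 genes. It was 240 and 306 for liver, 258 and 137 for blood, 225 and 142 for endothelium, 751 and 470 for epithelium and 767 and 387 for fibroblasts. By the rule for genes given below, under which 9.52% of all genes were gained and 10.9% lost, 1 of 6 liver genes was gained and 0 genes of the other lists. Lost were 4 of 9 epithelial, 2 of 7 fibroblast, 1 of 7 neuron, 1 of 7 endothelial, 1 of 6 liver and 1 of 5 blood genes with a tested window. Of their windows 34.6% (neuron, 18 of 52), 24.3% (fibroblast), 20% (blood, 3 of 15), 14.9% (epithelial), 9.3% (endothelial) and 3.66% (liver) were lost. Single genes weighed heavily here, in that 16 of the 18 lost neuron windows were given to Rbfox3 and 9 of the 17 lost fibroblast windows to Pdgfrb.

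A larger share of gains than of losses lay inside genes. Of the gained windows, 52.4% were intragenic (in the body of a protein-coding gene and over 5 kb from any start site) and 24.1% intergenic, against 33.7% and 38.8% of the lost windows. Within the 59283 tested intragenic windows, 4420 were gained (7.46%) and 2961 lost (4.99%), with a median ratio of 0.947 (0.945 to 0.953). Intergenic windows showed the opposite order, with 2027 of 43813 gained (4.63%), 3409 lost (7.78%) and a median ratio of 0.755 (0.746 to 0.759). The intergenic shares were alike within 50 kb of a start site (4.8% gained, 7.67% lost) and farther away (4.36% and 7.95%). The excess of gains over losses in gene bodies did not hold under other settings. In windows of at least 40 combined reads 2.09% of intragenic windows were gained and 5.53% lost, and after scaling by reads outside peaks 5.17% were gained and 8.12% lost. What held under both was that gene bodies had the highest share of gained windows and intergenic DNA the highest share of lost ones (8.29% and 12.5%).

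Of the 59283 tested intragenic windows 51092 held no exon sequence, and so did 3768 of the 4420 gained ones, a like share. Such windows made up 34.3% of all tested, 44.7% of all gained and 26.6% of all lost windows. Among intragenic windows without exon sequence 7.37% were gained and 4.57% lost, whereas windows that overlapped an exon had 7.96% and 7.65%. Of all reads, the intragenic share went from 37.5% in myoblasts to 40.4% in myotubes.

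Promoters were split between the start site and its flank. Promoter core windows, within 1 kb of a start site, were rarely gained (407 of 16593, or 2.45%) and were lost in 936 cases (5.64%), with a median ratio of 0.757 (0.742 to 0.763). Promoter flank windows, 1 to 5 kb away, were gained in 1574 of 29360 cases (5.36%) and lost in 1483 (5.05%), with a median of 0.861 (0.857 to 0.874), but with at least 40 combined reads 1.63% were gained and 5.79% lost. Their share of reads barely moved, from 17.3% to 16.4%, while that of the core went from 8.8% to 7.29%. Of the windows called in either direction, 59.9% were gained in gene bodies, 51.5% in flanks, 37.3% between genes and 30.3% in the core.

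The intragenic median was the highest of the 4 under every scaling and filter tried, but its level was not fixed. Over all classes, 49% of called windows were gained after scaling by total reads. That share was 28.7% after scaling by reads outside peaks and 67.1% after setting the median ratio to 1, so that no net gain or loss of the mark can be read from these counts.

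**Figure D2:**
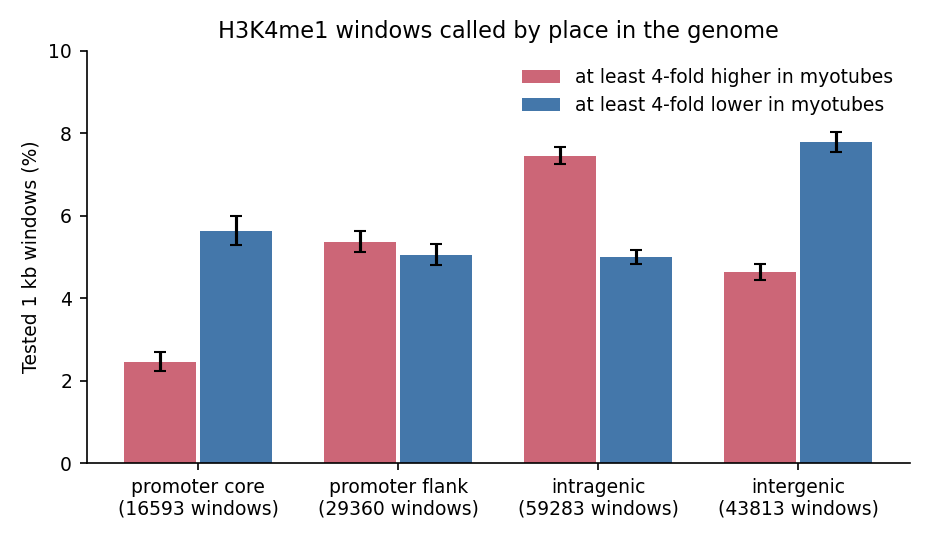
Percentage of tested 1 kb windows at least 4-fold higher (red) or lower (blue) in myotubes, for the 4 places in the genome, with the number of tested windows under each name. Error bars are Wilson intervals at 95%, which treat windows as independent draws and do not cover variation between replicate libraries. Gene bodies have the highest share of gained windows (7.46%) and intergenic DNA the highest share of lost ones (7.78%). In windows of at least 40 combined reads lost exceed gained ones in gene bodies too, at 5.53% against 2.09%.

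Called windows of 1 direction formed regions when joined across a gap of at most 1 window. There were 5867 gained regions, of which 1509 held at least 2 windows and 94 at least 5, and 70.7% lay in a gene. Lost regions numbered 7127, of which 1207 held at least 2 windows and 31 at least 5, and 53.5% lay in a gene. The gained windows were more often clustered, with 48.3% of them in regions of at least 2 windows against 32.6% of the lost windows. Most were far from promoters, at a median distance of 15249 bp from the nearest start site for gained regions and 16950 bp for lost ones. Gained windows held a median of 3 reads in myoblasts and 23 in myotubes, and lost windows 29 and 4, levels that the call itself sets. Of gained windows 47.3% had under 10 myoblast reads but a window of at least 10 within 2 windows on either side, and 52% had none. For lost windows and myotube reads these shares were 38.3% and 47.9%.

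The longest gained region, 26 kb at chr2:180089001-180115000, lies beside a gene for muscle microRNAs. It held 66 reads in myoblasts and 849 in myotubes, a ratio of 13.1 (10.3 to 17.3), with 23 called windows. H3K27ac went with it, from 21 to 1438 reads, a ratio of 25.7 after scaling by total reads. H3K27me3 in the region went from 356 to 115 reads, a ratio of 0.455. The nearest start site of a protein-coding gene, 32597 bp away, is that of Gata5, which codes for a GATA factor of heart and gut. The microRNA genes Mir1a-1 (chr2:180123753-180123829) and Mir133a-2 (chr2:180133084-180133187), whose products are abundant in skeletal and heart muscle, lie 8753 and 18084 bp from its end.

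Other microRNA genes of muscle were then looked up, a choice made after this region had been seen. Of the tested windows within 50 kb, 35 of 43 were gained and 1 was lost at Mir1a-1, and their summed reads went from 179 to 1232. At Mir206, on chromosome 1 beside Mir133b, 8 of 18 tested windows were gained and 0 lost, with 208 and 413 reads. At Mir133a-1 it was 3 of 13, at Mir499 4 of 22 with 1 lost, and at Mir208b 1 of 12. These counts stand beside 5.65% of all tested windows, and that at Mir1a-1 follows from the choice of the site. The mature microRNAs of the Mir206 site are shown as RefSeq gives them, with the seed, bases 2 to 8, in capitals, because the seed sets which mRNAs are bound.
mmu-miR-206-3p: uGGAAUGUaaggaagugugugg
mmu-miR-133b-3p: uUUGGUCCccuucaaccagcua

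The regions with the most secure gains were read from the lower bound of the ratio. First came 5 kb at chr2:113955001-113960000, with 3 reads in myoblasts and 135 in myotubes and a ratio of 35.1 (15.6 to 228). It lies in Aqr, which codes for a splicing helicase, and 78217 bp from the start of Actc1 (cardiac α-actin, made in embryonic muscle). Its H3K27ac count went from 2 to 292, a ratio of 38.4 after scaling by total reads. In Actn2, 12 kb at chr13:12406001-12418000 held 15 and 260 reads, a ratio of 16.8 (10.7 to 32.4). In Neb, 3 kb at chr2:52186001-52189000 held 3 and 96, a ratio of 25 (11 to 163). In Jph1, 4 kb at chr1:17030001-17034000 held 4 and 103, a ratio of 21.5 (10.1 to 99.4). Thus 3 of the first 12 lay in genes of the sarcomere or calcium lists.

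The remaining gained regions were near genes outside the lists. Those in Cdh13 (T-cadherin), near Slc5a6 (a vitamin transporter) and near Bod1 (a chromosome segregation protein) had 0 reads in myoblasts and 54, 50 and 48 in myotubes, or at least 18.6-, 17.2- and 16.5-fold higher. One in Itga9 (integrin α9) had 1 and 62 reads (ratio 32.5, 11.1 to 2569). Regions upstream of Emp2 and of 4932442E05Rik and one in Zdhhc16, near the start of Mms19, had ratios between 18.8 and 20.9. All 12 overlapped a peak of the deposited myotube list, and 0 overlapped one of the myoblast list. H3K27ac was 1.77- to 61.4-fold higher in myotubes at these 12, the lowest value being 1 and 8 reads near Bod1.

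The most secure losses were led by 2 kb in Adamts12 (chr15:11103001-11105000), with 116 reads in myoblasts and 4 in myotubes and a ratio of 0.0441 (0.00954 to 0.0937). Next came Actl6a with 90 and 3 reads (0.0454, 0.00697 to 0.104) and a site upstream of Arsa, a lysosomal sulfatase, with 199 and 12 (0.0671, 0.0316 to 0.111). Longer ones lay in Rbfox3, a splicing factor of neurons, with 350 and 32 reads over 8 kb, and in Sdc3, a syndecan of muscle precursors, with 299 and 27 over 9 kb. In Plk1, the mitotic kinase, 3 kb at chr7:129304001-129307000 held 70 and 3 reads, a ratio of 0.0582 (0.00891 to 0.135). The other 6 were in or near Celf4, Ppp2r2b, Fbf1, Ttc39c, Gm4968 and Foxn4, with 43 to 133 reads in myoblasts and 1 to 8 in myotubes. Of these 12, 11 overlapped a peak of the deposited myoblast list (all but that near Gm4968) and 0 one of the myotube list. H3K27ac in the 12 had ratios of 0.0319 to 0.246, from 4 to 68 reads in myoblasts. The widest lost region, 11 kb in Sema7a, held 826 and 110 reads, and others lay by Cd248 (605 and 102) and in Twist2 (587 and 86).

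At the level of genes, each window was given to the protein-coding gene with the nearest start site within 100 kb, which need not be the gene it acts on. A gene is called gained if it had at least 2 gained windows and more gained than lost, and lost in the reverse case. Of 13830 genes with a tested window, 1316 were gained (9.52%) and 1511 lost (10.9%), and 5.71% and 5.74% of their windows were gained and lost. The most gained windows were given to Ccdc141, which adjoins Ttn, the titin gene, with 49 of 105. Others high in this order were Cdh13 with 40 of 118, the cytoskeletal linker Macf1 with 37 of 116, Pde4dip (myomegalin) with 37 of 77, Srgap2 with 35 of 75, Rap1gap2 with 31 of 95, Gata5 with 29 of 32 and Rbm20 with 29 of 102. Rbm20 codes for the factor that splices titin mRNA. The most lost windows were given to Tns1 (tensin, of focal adhesions) with 25 of 137, Col18a1 with 22 of 56, Dlgap2 with 20 of 88, Fam19a5 with 16 of 48, Rbfox3 with 16 of 34 and Zmiz1 with 16 of 155. Glrp1, Pag1, Sema7a and Add2 followed with 14 or 15 each. Gene length and gene density set how many windows a gene could have.

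The lists of muscle genes had the highest shares of gained windows. In the sarcomere list 24 of 45 genes with a tested window were gained and 2 lost, and 24% of its windows were gained. In the list of excitation and calcium handling 17 of 30 genes were gained and 2 lost (21% of windows), in that of myogenic factors 6 of 13 and 1 (11.5%), in that of fusion, adhesion and membrane 5 of 17 and 2 (11.6%), and in that of muscle metabolism 4 of 17 and 0 (12.2%). The background of 9.52% of genes gained should be kept in view beside these counts. Genes with more tested windows could more easily reach 2, and the lists were drawn up with earlier results of these data known. After scaling by reads outside peaks, 881 of all genes were gained and 2438 lost, and the counts of gained genes were 21, 13, 5, 5 and 2 for the 5 lists in the same order.

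**Figure D3:**
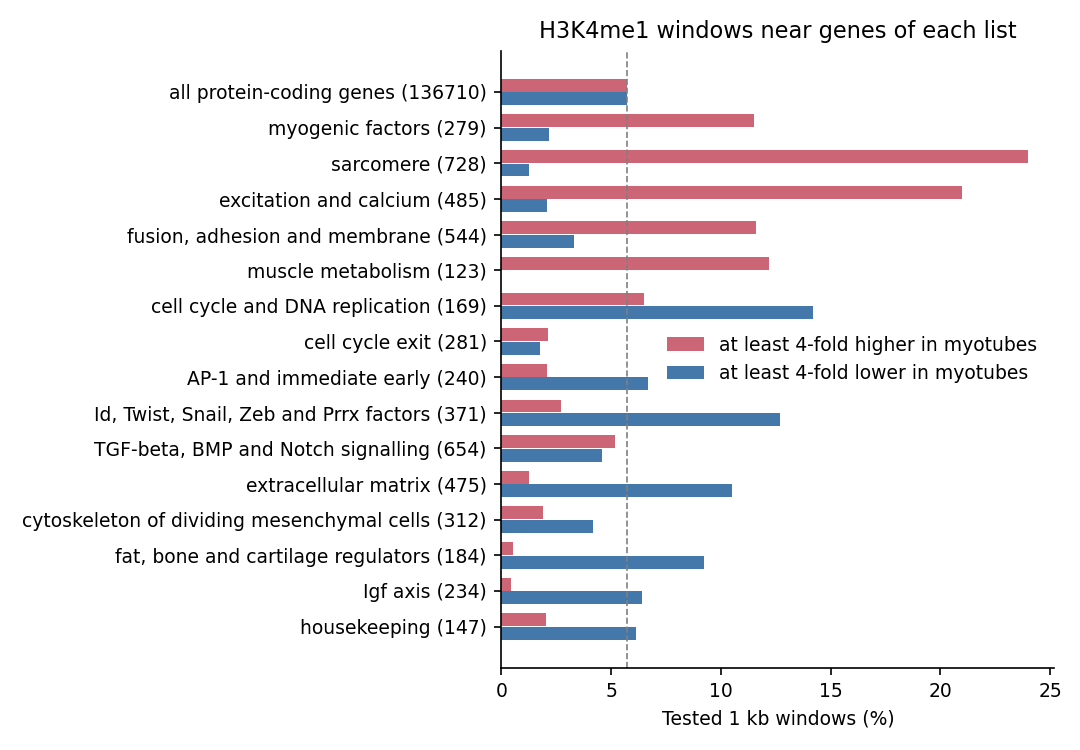
Percentage of tested 1 kb windows at least 4-fold higher (red) or lower (blue) in myotubes among the windows given to genes of each list, with the number of tested windows after each name, for lists with at least 100. The dashed line marks the percentage gained over all protein-coding genes, 5.71%. The sarcomere list (24%) and the excitation and calcium list (21%) reach farthest above it, and the cell cycle list (14.2% lost) and the Id, Twist, Snail, Zeb and Prrx list (12.7% lost) have the highest shares of lost windows among the lists drawn. The marker lists of other cell types, with fewer windows, are not drawn and reached 34.6% lost in the neuron list, where 16 of 18 lost windows were given to Rbfox3.

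Promoter flanks give 1 value per gene over the same 8 kb. Flanks whose reads summed to 40 or more over the 2 libraries were tested, and a flank was called at a 2-fold difference. Over all genes, 1295 of 13025 were higher in myotubes (9.94%) and 1711 lower (13.1%), with a median ratio of 0.927 (0.914 to 0.939). The sarcomere list had a median of 2.29 (1.64 to 2.96) over 45 genes, of which 24 were higher and 0 lower. Muscle metabolism had 1.72 (1.18 to 3) with 5 of 17 higher and 0 lower, and excitation and calcium had 1.3 (0.991 to 1.93) with 9 of 30 higher and 1 lower. After scaling by reads outside peaks these medians were 1.85, 1.39 and 1.05, over a median of 0.749 for all genes.

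Among sarcomere genes, Neb had the most gained windows, 25 of 36. Its flanks held 15 reads in myoblasts and 209 in myotubes, a ratio of 13.6 (8.53 to 26.2). Gained windows lay on both sides of the start: 4.2 kb downstream it was 0 and 28 reads, 1.8 kb upstream 2 and 38, and 15.8 kb upstream 1 and 21. Xirp1, which codes for an actin-binding protein of striated muscle, had the most lost, 2 of 20, and its flanks held 235 and 135 reads (0.595, 0.476 to 0.736). Myom1 (myomesin of the M-band) also had 2 lost and 1 gained, although its flanks went from 27 to 62.

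The genes that follow were named as examples after their values had been seen. In Actn2, 18 of 20 windows were gained and the flanks went from 7 to 90 reads (11.7, 6.19 to 34). Ttn, the spring of the sarcomere, had 50 and 160 flank reads (3.26, 2.39 to 4.64), and Acta1 had 67 and 184 (2.81, 2.13 to 3.81). Of the myosin heavy chains, Myh2 (adult type IIa) had 4 and 50 (10.5, 4.74 to 49.2), and Myh3 (embryonic) had 85 and 149 (1.8, 1.38 to 2.39) with 15 of 27 windows gained. The flanks of some contractile genes stayed near a ratio of 1 while H3K4me3 at their start site did not. Tnnc2 (fast troponin C) had 169 and 167 flank reads against 3 and 149 for H3K4me3. Mybpc2 (fast myosin-binding protein C) had 67 and 63 against 0 and 10, and Mybph 238 and 219 against 9 and 166.

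Excitation and calcium genes were led by Jph1, with 21 of 30 windows gained and flanks of 19 and 79 reads (4.13, 2.58 to 7.51). Clcn1, the muscle chloride channel, had the most lost, 4 of 7, and its flanks went from 110 to 36 (0.344, 0.225 to 0.496). Other genes of calcium handling went both ways. Higher in myotubes were Cacna1s (the voltage sensor) with 77 and 185 reads (2.46, 1.89 to 3.28), Ryr1 (the release channel) 39 and 87 (2.27, 1.56 to 3.45) and Casq2 (a calsequestrin) 17 and 107 (6.2, 3.88 to 11.6). Lower in their flanks were Jph2 (another junctophilin) with 150 and 93 (0.643, 0.489 to 0.835), the calcium pump Atp2a1 with 347 and 220 (0.656, 0.55 to 0.777) and Hrc, a calcium-binding protein of the reticulum, with 155 and 113 (0.755, 0.585 to 0.966). By their windows, however, Jph2 (5 of 39 gained, 0 lost) and Atp2a1 (2 of 18 gained, 0 lost) are among the gained genes. Hrc had 0 gained and 0 lost of 3. The acetylcholine receptor subunits differed among themselves, in that Chrng (the fetal γ subunit) had 86 and 247 (2.94, 2.31 to 3.84), whereas Chrna1 had 172 and 165 (0.991, 0.795 to 1.23) and Chrnb1 179 and 132 (0.763, 0.603 to 0.959).

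In the fusion list, Dysf had the most gained windows, 27 of 114 with 3 lost, and flanks of 53 and 168 reads (3.23, 2.39 to 4.55). Kirrel, a cell adhesion protein, had the most lost, 8 of 31. Bin1, which shapes T-tubules, had 15 of 107 windows gained, yet its flanks went from 354 to 206 (0.602, 0.504 to 0.716). Tmem8c, now called Myomaker, drives the fusion of myoblasts. It had 7 of 16 windows gained and flanks of 173 and 271 (1.61, 1.33 to 1.97), and the gain left out the start site, with 11 and 47 reads in the window 0.8 kb upstream and 50 and 29 in that 0.2 kb downstream. In the metabolism list Mb (myoglobin) had the most gained windows, 4 of 31, with flanks of 94 and 294 (3.21, 2.55 to 4.12), and 0 windows of the list were lost.

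The myogenic factors themselves were split. At Myog 7 of 34 windows were gained, and the flanks held 137 reads in myoblasts and 237 in myotubes (1.78, 1.44 to 2.22). The start site window held 26 and 21, while gains were seen 12.1 kb upstream (7 and 49) and 7.9 kb downstream (5 and 41). At Tead4, a TEA domain factor, 11 of 51 windows were gained, but the flanks went from 178 to 95 (0.554, 0.425 to 0.711). The MEF2 genes, which code for partners of the MyoD family, had gained windows at Mef2c (4 of 12), Mef2d (4 of 40, 1 lost) and Mef2a (3 of 41). Flanks of Mef2c held 2 and 22 reads (7.92, 2.79 to 99.7), under the minimum for a call, those of Mef2a 55 and 71 (1.33, 0.924 to 1.93) and those of Mef2d 350 and 197 (0.583, 0.486 to 0.694). Mef2b, with 19 and 10 reads, was under the minimum too.

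Myod1 had flanks of 81 and 79 reads (1.01, 0.729 to 1.39) and 2 gained and 1 lost of 37 windows. Of the other members of its family, Myog had the higher flanks given above. Myf5 and Myf6 were as level as Myod1, with 47 and 43 (0.947, 0.61 to 1.46) and 52 and 55 (1.09, 0.734 to 1.63). The homeobox factor Six4, which acts upstream of them, had 98 and 67 (0.709, 0.51 to 0.973). Of the precursor factors, Pax7 lost 4 of 18 windows, with flanks of 63 and 33 (0.549, 0.344 to 0.837), and Pax3 had too few reads for a call, 21 and 7. Over the 10 tested flanks of the list the median was 0.977 (0.554 to 1.33), with 0 called in either direction.

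Lists of genes of proliferating and mesenchymal cells had more genes lost than gained, as did the epithelial (4 of 9 lost) and fibroblast (2 of 7 lost) marker lists. The neuron, blood and endothelial marker lists had 1 lost gene each and 0 gained, too few to give a direction. In the cell cycle list 7 of 24 genes were lost and 2 gained, against 10.9% and 9.52% of all genes, and the median flank ratio was 0.537 (0.399 to 0.904), with 12 of 26 flanks lower and 2 higher. After scaling by reads outside peaks 9 were lost and 0 gained. Plk1 had flanks of 108 and 12 reads (0.123, 0.0575 to 0.209) and lost 3 of 6 windows. Cdc20, an activator of the anaphase-promoting complex, had 93 and 20 (0.231, 0.13 to 0.363), and Aurka, a mitotic kinase, 73 and 13 (0.195, 0.0935 to 0.334). At Ccnd1 flanks went from 233 to 115 (0.512, 0.404 to 0.64), although 4 windows given to it were gained. At Cdk2 and Ccnb2 the flanks were higher in myotubes, with 41 and 91 (2.26, 1.57 to 3.4) and 27 and 66 (2.47, 1.59 to 4.11), and each had 1 gained window and 0 lost. In the list of cell cycle exit 1 of 13 genes was gained and 0 lost, with 4 of 10 windows gained at Rb1, the retinoblastoma gene, and flanks of 109 and 112 reads at Cdkn1a (p21).

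In the list of Id, Twist, Snail, Zeb and Prrx factors, which code for repressors of differentiation or mesenchymal regulators, 7 of 15 genes were lost and 2 gained, or 10 and 1 after scaling by reads outside peaks. Twist2 led with 13 of 34 windows lost and flanks of 102 and 17 reads (0.18, 0.0965 to 0.289). A window 14.5 kb downstream of its start held 109 reads in myoblasts and 6 in myotubes. At Id3 9 of 27 windows were lost, among them one 9.4 kb upstream with 63 and 9 reads, while the window that holds the start site was gained with 3 and 24. Zeb1, with 5 of 41 windows gained and flanks of 46 and 74 (1.65, 1.13 to 2.46), and Prrx1 (3 of 47 gained) went the other way.

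Extracellular matrix genes showed the same direction, with 11 of 21 lost and 1 gained and a median flank ratio of 0.64 (0.527 to 0.792). After scaling by reads outside peaks 14 were lost and 1 gained, and the median was 0.517. Thbs2, a thrombospondin, lost 10 of 28 windows. Loxl2 (lysyl oxidase-like) went from 147 to 55 flank reads (0.391, 0.278 to 0.53) and Col6a1 (collagen VI) from 92 to 26 (0.3, 0.181 to 0.455). The gained gene was Thbs1, with 3 of 23 windows. In the fibroblast marker list Pdgfrb, the PDGF receptor β, lost 9 of 25 windows and its flanks went from 172 to 41 (0.251, 0.171 to 0.348).

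Counts of lost genes in the cytoskeleton and Igf lists below depended on the scaling, being 7 and 6 after scaling by reads outside peaks. Over all genes 9.52% were gained and 10.9% lost. Regulators of fat, bone and cartilage had 5 of 10 genes lost and 0 gained, with Sox9 (the cartilage factor) and Ebf1 at 4 lost windows each. Of the AP-1 and immediate early genes 4 of 13 were lost, Myc with the most windows (7 of 34), and 1 was gained, Fos with 5 of 51. The Igf axis had 3 of 11 lost, Irs2 with 5 of 26 windows, and 0 gained. For TGF-β, BMP and Notch signalling 7 of 19 were gained, Bmpr1a (a BMP receptor) with 10 of 37 windows, and 5 lost, Smad6 (an inhibitory Smad) with 7 of 40. The shares of windows in this list, 5.2% gained and 4.59% lost, were under those of all genes, 5.71% and 5.74%. In the cytoskeleton list 4 of 13 were lost, among them Actn1 (non-muscle α-actinin) with 4 windows, and 1 was gained, Vcl (vinculin) with 4. The shares of windows lost were 4.17% in the cytoskeleton list, 6.41% in the Igf axis and 6.67% in the AP-1 list. Those lie near or under the 5.74% of all genes, while the fat, bone and cartilage list had 9.24%. Of 13 housekeeping genes 1 was gained and 1 lost, with a median flank ratio of 1.06.

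Promoters that had an H3K4me3 peak in 1 cell type only differed in H3K4me1 between flank and start site. The groups rest on the deposited peak lists, and a peak in 1 list only need not mean a large difference in reads. With a peak in myotubes only, H3K4me3 reads in myoblasts and myotubes were 19 and 23 at Igf2r but 2 and 183 at Casq2. At 482 promoters with an H3K4me3 peak in myotubes only, the median flank ratio was 1.64 (1.45 to 1.81), and 41.1% of 394 tested flanks were at least 2-fold higher and 4.57% lower. In the core of the same promoters the median was 0.889 (0.794 to 0.95). At 435 promoters with a peak in myoblasts only, flank and core were both lower in myotubes, with medians of 0.599 (0.549 to 0.654) and 0.516 (0.472 to 0.544). The 10488 promoters with a peak in both had medians of 0.975 (0.962 to 0.991) and 0.972 (0.959 to 0.986). Where no peak was present the medians were 0.774 (0.757 to 0.795) and 0.578 (0.553 to 0.59).

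The mean profile showed the same. With H3K4me3 in both cell types, H3K4me1 had 2 summits, 650 bp upstream (5.01-fold over the genome mean in myoblasts, 4.04 in myotubes) and downstream (5.12-fold at 1250 bp and 4.66-fold at 1050 bp), around a dip of 2.83 and 2.87 at the start site. At promoters with a peak in myotubes only, the myoblast profile was a single summit of 7.88-fold at 150 bp. In myotubes the summit of 6.52-fold lay 450 bp upstream, and 10 kb downstream the level was 3.31 against 2.24. Promoters with a peak in myoblasts only had summits of 7.51-fold in myoblasts and 3.69-fold in myotubes. These are means over many promoters, and single ones differed. Among genes of the lists with a myotube peak only, the core held 106 myoblast reads at Chrng and 87 at Stac3, but 0 at Myh8 and 1 at Trdn.

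**Figure D4:**
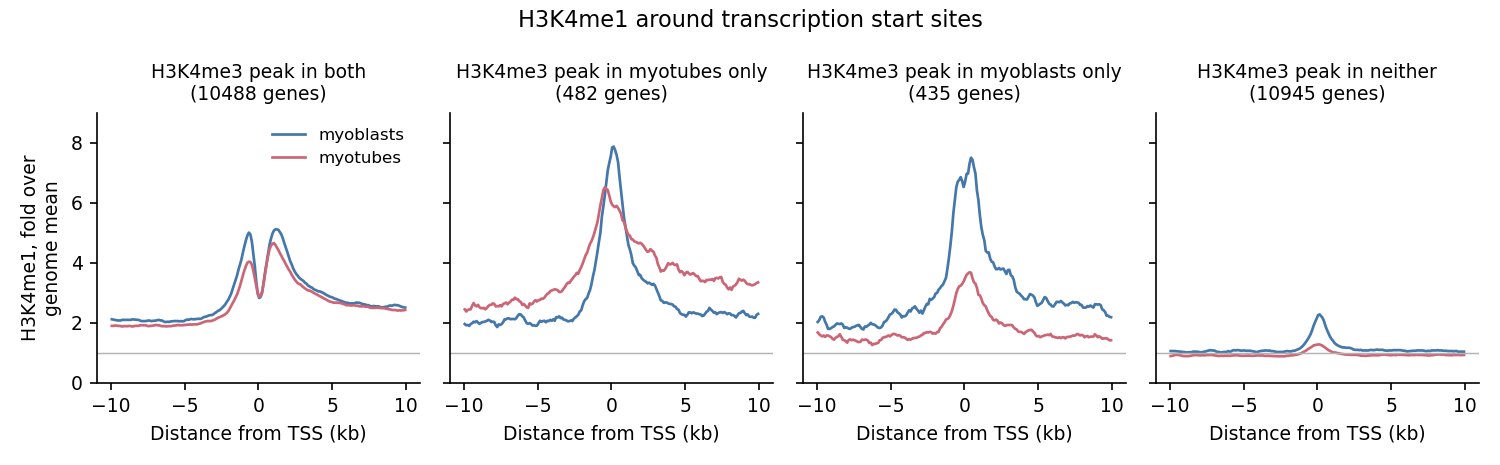
Mean H3K4me1 as fold over the genome mean (vertical axis) by distance from the start site in kb (horizontal axis, upstream negative), for myoblasts (blue) and myotubes (red), at protein-coding genes grouped by the deposited H3K4me3 peaks within 1 kb of the start. The grey line marks the genome mean. The myotube curve lies above the myoblast curve on both flanks of the 482 promoters with a myotube peak only, and below it at the 435 with a myoblast peak only.

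Other marks, which did not choose the windows, were read in the same places. In gained windows mean H3K27ac was 1.48-fold over the genome mean in myoblasts and 9.13-fold in myotubes, a ratio of 6.18, and it was higher in myotubes in 90.3% of windows, against 50.5% of all tested windows. H3K4me2 went from 1.22- to 6.37-fold (ratio 5.23), with 96.1% of windows higher, and H3K4me3 from 1.54- to 3.91-fold. In lost windows H3K27ac went from 9.85- to 2.58-fold (ratio 0.262) and H3K4me2 from 10- to 2.72-fold (0.271), and 11.2% and 7.83% of windows were higher in myotubes. H3K4me3 went from 2.71- to 1.72-fold there. Away from promoters, over 5 kb from a start site, the ratios of H3K27ac were 7.53 and 0.246. After scaling H3K4me2 by its reads outside peaks, its ratios were 3.37 in gained and 0.175 in lost windows.

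The repressive and transcription marks differed little in their means over called windows. Single regions varied more. Over the 12 most secure gained regions, ratios of H3K27me3 ran from 0.455 (Gata5) to 2.64 (Zdhhc16). Those of H3K36me3 ran from 0.272 (near Slc5a6 and near Bod1) to 36.7 (Neb). H3K27me3, which Polycomb proteins lay down, was 1.29- and 1.17-fold in gained windows and 1.1- and 1.16-fold in lost ones. H3K36me3, which covers transcribed gene bodies, was 3.08- and 3.6-fold in gained windows and 2.54- and 2.66-fold in lost ones. Over all tested windows H3K4me2 had a ratio of 0.767, H3K4me3 one of 1.17 and H3K27ac one of 1.04. The H3K27ac library of myoblasts held 1857191 reads and that of myotubes 4721345, so that single windows of myoblasts rest on few reads.

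**Figure D5:**
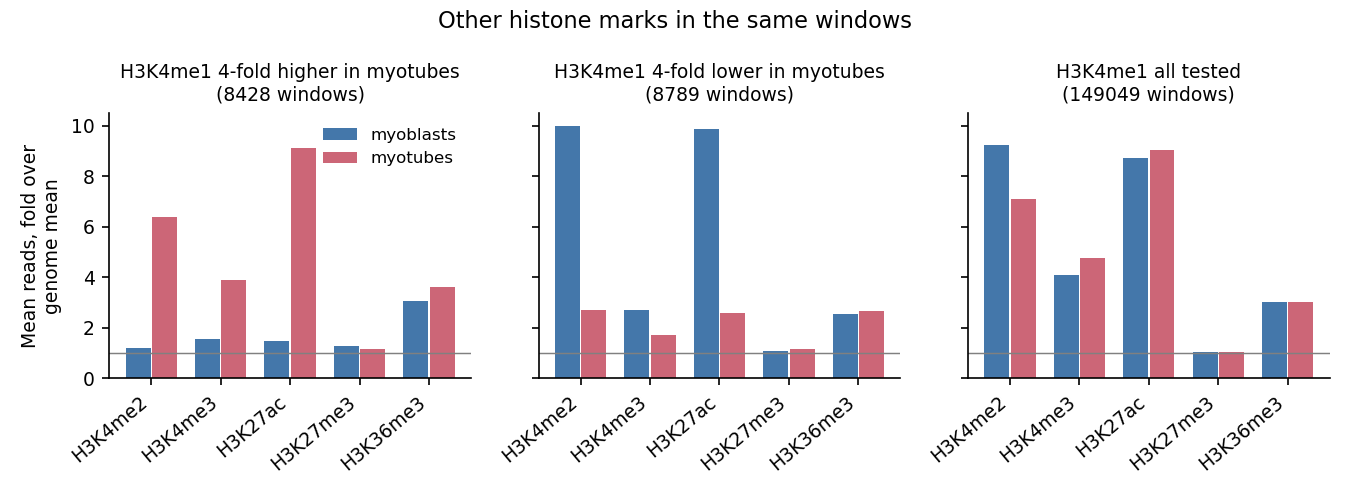
Mean reads per window as fold over the genome mean (vertical axis, from 0) of 5 other histone marks in myoblasts (blue) and myotubes (red), in windows with H3K4me1 at least 4-fold higher in myotubes, at least 4-fold lower, and in all tested windows. The grey line marks the genome mean. H3K4me2 and H3K27ac are higher in myotubes in the first panel (9.13 against 1.48 for H3K27ac) and lower in the second (2.58 against 9.85), while H3K27me3 stays between 1.04 and 1.29.

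Motifs were counted as the share of windows with at least 1 match on either strand. The AP-1 motif TGANTCA was in 42.1% of lost windows, 34.9% of tested and 25.2% of gained windows, against 26.7% of all genome windows. The motif of MEF2 proteins was in 20.1% of gained, 12.8% of tested and 7.84% of lost windows and, being rich in A and T, in 21.7% of the genome. Gained windows had less G and C (45.6%) than lost ones (49.9%). Among windows of 45 to 50% G and C the MEF2 motif was in 14.9% of gained and 8.98% of lost windows, and TGANTCA in 23.4% and 45.2%.

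The E-box CAGCTG was in 48.7% of gained, 47.9% of lost and 50.3% of tested windows against 30.8% of the genome. Among windows of like base composition it was more frequent in gained than in lost windows above 40% G and C, with 43.4% against 35% at 40 to 45%, 51.8% against 45% at 45 to 50%, 60.6% against 53.4% at 50 to 55% and 74.9% against 57.1% above that. Below 40% the shares were 32.2% and 32.4%. From 40 to 55% the shares of all tested windows (41.4%, 50.2% and 58.5%) lay nearer to those of gained than of lost windows. Above 55% the tested share was 60.3%, nearer to that of lost windows, with 271 gained windows there. CAGGTG was in 57.5% and 58.9% of gained and lost windows, and CACGTG in 12.6% and 18.5%. These 3 E-boxes differ in their letters, and 1 window can hold all of them. The TEAD motif CATTCC (46.4% and 45.1%), the RUNX motif AACCACA (24.7% and 21%) and the SRF motif (5.2% and 4.35%) differed little, as did the comparators ATTTGCAT (5.05% and 4.24%) and GATAAG (27.5% and 25.1%). A match is a run of letters and not a bound site.

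The deposited peak lists differed in the width of their peaks. The myoblast list held 67328 peaks with a median width of 933 bp and 43.9% of the reads, and the myotube list held 92623 peaks with a median width of 117 bp and 8.61% of the reads. Of the myoblast peaks 35.4% overlapped a myotube peak by at least 1 base, and of the myotube peaks 61% overlapped a myoblast peak. The peaks come from the same reads as the windows. Of gained windows 69.1% touched a myotube peak and 6.25% a myoblast peak, of lost windows 3.81% and 92.2%, and of all tested windows 38.5% and 67.4%.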

How the data were processed

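Counts: the authors deposited 1 line per uniquely aligned read, each with a count of 1, from Mosaik alignment to mm9. MACS settings, any merging of runs and any removal of duplicates are not given in the sources used here. The deposited peak lists carry a MACS score per peak within its own list. No input library was used here. Libraries had 15 PCR cycles and fragments of about 250 bp with adaptors, and reads were 34 bp. The myoblast lists of H3K27me3 and H3K27ac peaks look exchanged, and were used only to find DNA outside peaks for scaling those marks.

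Reads on chromosomes 1 to 19 and X were extended to 150 bp, and fragment midpoints were counted in 1 kb windows (Python 3.11.15, numpy 2.4.6, pandas 2.3.3, scipy 1.17.1, matplotlib 3.10.9). Each ratio is myotubes over myoblasts after scaling by total reads, with 1 read added to each count. Ratios carry exact conditional binomial intervals, medians order-statistic intervals and shares Wilson intervals. Genes come from GENCODE M1, with 1 start site per gene for flanks, that with the most H3K4me3 reads in both cell types. Named were the 12 gained and 12 lost regions of at least 2 windows with the most extreme near bound, 1 per nearest gene, the 10 genes with the most gained and the most lost windows, the member of each list with the most of each, and all myogenic factors. Some genes that the rule names are not reported here. Members and lists were chosen with earlier results of these data known. In simulated data, 94.8% of 400 windows made 8-fold different were called, 0 in the wrong direction, and 0.0506% of unchanged windows were called. The changed windows were drawn from those of at least 40 combined reads, whereas 67.2% of the real gained windows held 20 to 29. The simulated libraries also had no difference in contrast, so these rates do not carry over to the real calls. Alternatives changed the scaling, filters, window size and grid, read extension, duplicates, start sites and assignment to genes.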

Additional observations from a re-analysis of the deposited data

How the results depend on the processing

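Gained and lost windows numbered 8428 and 8789, of which 49% were gained. Scaling by reads outside peaks gave 5796 and 14376 (28.7% gained), setting the median to 1 gave 11678 and 5715 (67.1%), and local scaling within 1 Mb gave 4849 and 12828 (27.4%). A minimum of 40 reads gave 874 and 3414 (20.4%), a ratio of 3 gave 13595 and 16959 (44.5%), 5 added reads gave 2830 and 2591 (52.2%), and 2 kb windows gave 3241 and 3116 (51%). With 1 read per position 50.1% were gained, and with a scaling matched to the level of the window, added after seeing the data, 7073 and 5960 (54.3%). Median ratios of promoter core, flank, intragenic and intergenic windows were 0.612, 0.695, 0.765 and 0.61 outside peaks, 0.638, 0.717, 0.746 and 0.619 with local scaling and 0.631, 0.688, 0.733 and 0.626 with at least 40 reads. They were 0.901, 1, 1.09 and 0.96 with the level-matched scaling, where the intragenic median passed 1. Flanks of 1 to 3 kb gave 0.848, and 1 read per position gave 0.857 for flanks and 0.942 for intragenic windows. With 50% of a peak covered, 0.25% of myoblast and 59.7% of myotube peaks overlapped, and with a score of at least 100, 18% and 70.3% did. The causes of these moves were not tested, other than that stricter rules call fewer windows. Values of named regions stayed within their interval in 70 cases and left it in 2, shares of windows with a motif stayed in 20 of 20 cases for gained and 15 of 20 for lost windows, ratios of other marks in 3 of 15 and 3 of 15, class percentages gained in 12 of 28 and lost in 10 of 28, and the profile around start sites in 1 of 12. Counts of gained genes per list moved by over 1.5 times in 6 cases of 66 and of lost genes in 12, and median flank ratios left their interval in 12, all without a reversal past the interval. The blood list had no tested flank at 1 to 3 kb, so no value could be given. No paired analysis was possible because each condition has 1 library. For the same reason no library could be left out, no outlier could be sought, and depth limits single windows to differences of several fold.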
